A study of Mus musculus with 12 samples.

Results

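Aminoacyl-tRNA synthetases are the enzymes that join each amino acid to its tRNA, and the 36 genes described here are those whose products do so in the cytosol (20 genes) or in the mitochondrion (16 genes). They were listed by name and kept if their rows of the count table held at least 30 reads summed over the 12 samples, which all 36 did, out of 15138 genes that passed this filter and 56691 in the table. A synthetase recognises its amino acid and the matching tRNAs, spends ATP to activate the amino acid and so sets the accuracy with which the genetic code is read. Nuclear genes encode both sets. Most amino acids have a separate mitochondrial enzyme, recognisable by the 2 at the end of its symbol, while Gars and Kars each supply both compartments from a single gene and are counted with the cytosolic ones. T cells that are activated through the T cell receptor are known to raise protein synthesis and amino acid uptake before they divide, and synthetase genes are among the known targets of the transcription factors ATF4 and MYC.

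The cells came from 12 Tg4 Nr4a3-Tocky Il10-GFP mice. Their CD4+ T cells carry a transgenic receptor for a myelin basic protein peptide. These cells make a Timer protein, blue and then red, when Nr4a3 is transcribed. A first dose of 4 mg/kg of the peptide [4Y]-MBP was given to every mouse under the skin, followed 24 h later by an antibody treatment into the peritoneum and, 30 min after it, by a second peptide dose of 0.4 mg/kg. The 4 groups of 3 mice differed in the antibody alone: a pool of rat IgG1 and IgG2a (isotype), anti-Lag3 (clone C9B7W), anti-PD-L1 (clone MIH5), or both blocking antibodies together (co-blockade, CB). Spleens were taken 12 h after that, and live CD4+ cells positive for both Timer colours and negative for markers of other cell types, among them CD11b and CD8 (the responders), were sorted for sequencing from the 3′ ends of mRNA. The study used mice of both sexes. Sex and age were given for its mice in general and not for each sample. The sort took 4 samples at a time, with a CD4 antibody of a different fluorochrome for each group, so staining colour and treatment cannot be told apart. Which sample numbers were sorted together is not given in the sources used here.

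Reads on genes were between 16449370 and 22151025 per sample, and the synthetases held between 1279 reads (Nars2) and 69428 reads (Eprs) over all samples. Values are given as CPM (reads of a gene scaled to a common library size), corrected for library composition by edgeR's TMM method, one value per mouse in the order of the sample numbers. A gene is said to be called where the p of edgeR's quasi-likelihood test, adjusted over all 15138 genes by the Benjamini-Hochberg (BH) method, was under 0.05. SE is the standard error of a log2 fold change. The T cell markers Cd3e, Cd3d, Cd3g, Cd4, Trac, Lck, Cd5 and Cd2 had at least 2011 reads in every sample and summed to 2510 to 2611 CPM in isotype mice and 2236 to 2274 in CB mice. This sum was 2428 to 2515 CPM with anti-Lag3 and 2346 to 2649 with anti-PD-L1. Of the 8 T cell markers, 2 were called lower in CB, Cd3e and Cd4, against 1.96% of all genes. Cd3e had 216, 233 and 258 CPM in the isotype mice and 201, 182 and 158 in the CB mice. Cd4 had 311, 318 and 277 CPM in the isotype mice and 223, 214 and 202 in the CB mice. Markers of several other cell types were low: 9 myeloid genes summed to 6.50 to 25.03 CPM, 5 NK cell genes to 0 to 6.62 CPM and 4 platelet genes to 0 to 3.31 CPM. The CD8 markers Cd8a and Cd8b1 summed to 40.9 to 45.3 CPM in isotype mice and 29.2 to 46.4 in anti-Lag3 mice. The sum was 24.6 to 30.5 in anti-PD-L1 mice and 25.05 to 33.2 in CB mice, so that isotype lay above both without overlap. Cd8b1 made up most of this sum, with 7875 reads over all samples against 169 for Cd8a. Cd8a reached at most 3.239 CPM in a mouse, and its groups overlapped. Red cell markers were more abundant, with 7 genes at 245 to 452 CPM in isotype mice and 152 to 200 in CB mice. Their sum was 172 to 218.5 CPM with anti-PD-L1, also below isotype without overlap. With anti-Lag3 it was 218.2 to 290.8 and overlapped with isotype. Of the 7 genes, 2 were called lower in CB than in isotype, Hbb-bs and Hbb-bt, against 1.96% of all genes. The part of these marker shifts in the results on synthetases was not tested. In sorted bulk samples, fewer cells of a type and less RNA per cell cannot be told apart.

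In CB responders 10 of the 36 synthetase genes were higher than in isotype responders, and nearly all of these encode cytosolic enzymes. Of the 20 cytosolic genes, 9 were called higher in CB: Aars, Cars, Eprs, Farsa, Iars, Mars1, Nars, Tars and Yars. Of the 16 mitochondrial genes, 1 was called, Mars2. No synthetase was called lower. With DESeq2 testing for a log2 change beyond 0.2 only Cars and Mars2 were called. The paper's methods also set a log2 threshold of 0.2 in DESeq2, along with a further filter not applied here. The calls above rest on a test against 0. With the 4 samples numbered 1 left out only Cars, Farsa and Iars were called. Over all genes tested, 4.29% were called, 2.33% higher and 1.96% lower. Among the 8517 genes with at least as many reads as the least abundant synthetase, 4.06% were called higher. That synthetase is mitochondrial Nars2 with 1279 reads. The least abundant cytosolic gene, Cars, held 8296, so this share is not matched in depth to the cytosolic list.

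Most cytosolic genes had values above 0, called or not. Of 20 cytosolic genes 19 had a log2 fold change above 0 from isotype to CB, with a median of 0.40, against a median of 0.00 over all genes tested. Of the 16 mitochondrial genes 12 did so, with a median of 0.21. The distance between these medians rested on single mice: without isotype mouse 1 they were 0.41 (cytosolic) and 0.38 (mitochondrial), without the 4 samples numbered 1 they were 0.37 and 0.35, and without CB mouse 3 they were 0.42 and 0.13. In 12 of the 20 cytosolic genes all CB mice lay above all isotype mice, which held for 10.4% of all genes. This was the case for 3 of the 16 mitochondrial genes. In Qars alone among the synthetases all CB mice lay below all isotype mice, which held for 9.62% of all genes. How far the 2 lists differed from each other was not tested, since their members were chosen with earlier results of these data known. The standard error of the log2 fold change had a median of 0.14 for the cytosolic and 0.33 for the mitochondrial genes, so a change of the same size was harder to call in the mitochondrial list.

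**Figure D1:**
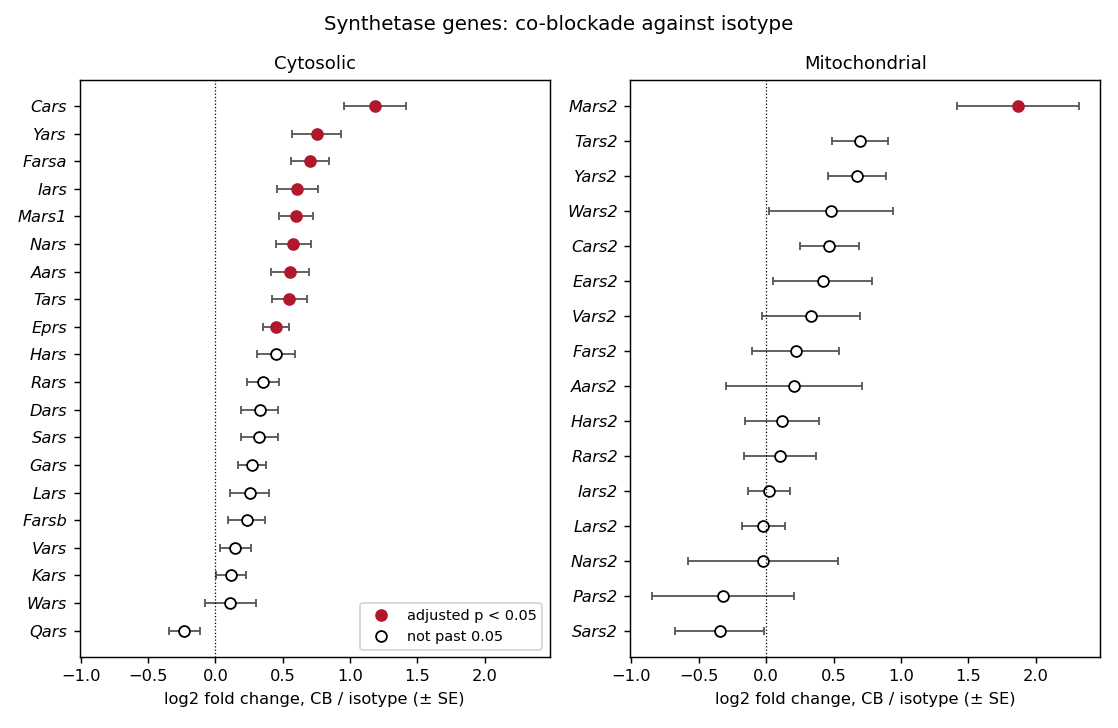
Log2 fold change between CB and isotype (horizontal axis) for each of the 20 cytosolic and 16 mitochondrial synthetase genes, ordered by size, with bars of 1 standard error; filled points passed an adjusted p of 0.05 in edgeR's test over all genes. Cars (1.19) and Mars2 (1.87) lie farthest to the right, Qars (-0.23) is the only cytosolic gene left of 0, and the mitochondrial bars are wider.

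Added up, the 20 cytosolic genes took 2380, 2404 and 2377 CPM in the isotype mice, 2753, 2477 and 2505 in the anti-Lag3 mice, 2675, 2746 and 2584 in the anti-PD-L1 mice and 3175, 2888 and 3116 in the CB mice. The isotype mice lay within a narrow band below all others, the single antibodies overlapped with each other, and every CB mouse lay above every other mouse. The 16 mitochondrial genes took 471, 479 and 449 CPM in the isotype mice, 474, 472 and 497 in the anti-Lag3 mice, 538, 602 and 476 in the anti-PD-L1 mice and 586, 482 and 536 in the CB mice. Here CB mouse 2 lay among the anti-Lag3 mice, and the highest value was that of anti-PD-L1 mouse 2. Lars2 alone made up 25.6% to 41.5% of the mitochondrial sum. With Lars2 left out, the sum was 280 to 309 CPM under isotype, 322 to 370 with anti-Lag3, 312 to 357 with anti-PD-L1 and 358 to 384 with CB. Every isotype mouse then lay below every mouse of the other groups, narrowly so for anti-PD-L1, and CB overlapped with anti-Lag3. The ratio of the cytosolic to the mitochondrial sum was 5.02 to 5.30 in the isotype group, 5.04 to 5.80 with anti-Lag3, 4.56 to 5.43 with anti-PD-L1 and 5.42 to 5.998 with CB. All CB mice lay above the isotype mice in this ratio when Lars2 was counted. Without it the ratio was 7.71 to 8.58 in isotype mice and 8.06 to 8.50 in the CB group, and these ranges overlapped.

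**Figure D2:**
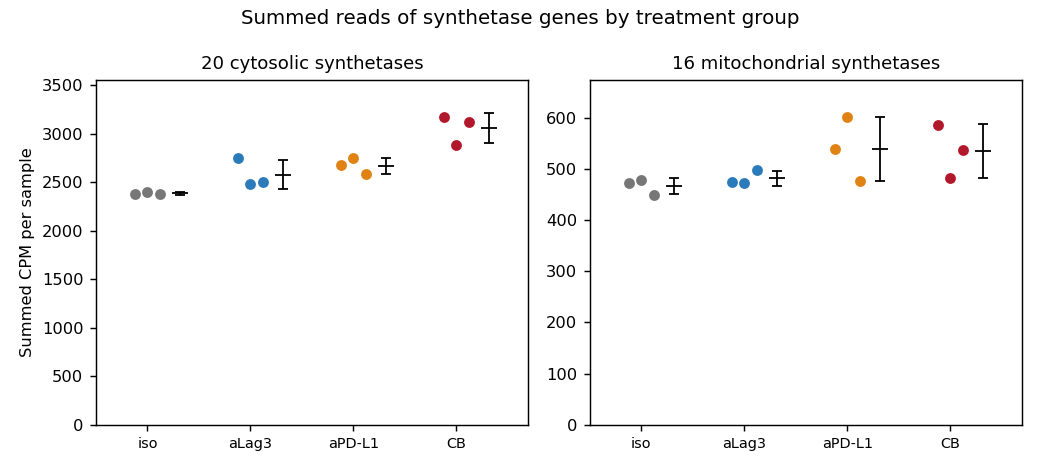
Summed CPM of the 20 cytosolic (left) and 16 mitochondrial (right) synthetase genes for each mouse, by treatment group, with mean and SD (n = 3 mice); the vertical axes start at 0 and differ in scale. All CB mice, at 2888 or more, lie above the other groups on the left. On the right, with Lars2 counted, the groups overlap.

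Cars, which charges tRNA with cysteine, had the largest change of the cytosolic set (ENSMUSG00000010755, chromosome 7 from 143557230 to 143600090 of GRCm38). It had 24.6, 18.4 and 21.5 CPM in the isotype mice, 37.8, 35.4 and 23.95 in the anti-Lag3 mice, 40.5, 33.9 and 38.7 in the anti-PD-L1 mice and 43.6, 37.6 and 65.8 in the CB mice. All isotype mice lay below all CB mice, and CB mouse 3 stood well above the other CB mice. The mean went from 21.5 ± 3.12 to 48.99 ± 14.8 CPM (SD, n = 3), a log2 fold change of 1.19 (SE 0.23, quasi-likelihood test in edgeR, BH-adjusted p = 0.00218). Yars, the tyrosine enzyme (ENSMUSG00000028811, chromosome 4 from 129189760 to 129219607), had 34.3, 37.9 and 47.4 CPM in the isotype mice, 66.0, 48.7 and 50.95 in the anti-Lag3 mice, 78.05, 79.4 and 52.02 in the anti-PD-L1 mice and 62.6, 73.9 and 64.9 in the CB mice. The isotype mice lay below all 9 others, but CB and anti-PD-L1 overlapped fully. Between CB and isotype Yars rose by 0.75 (SE 0.18, same edgeR test, BH-adjusted p = 0.0132), and between anti-PD-L1 and isotype the log2 fold change was 0.81 without passing the threshold (same edgeR test, BH-adjusted p = 0.1497).

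Phenylalanyl-tRNA synthetase of the cytosol is built from an alpha subunit, Farsa, which holds the catalytic site, and a beta subunit, Farsb. Farsa (ENSMUSG00000003808, chromosome 8 from 84856989 to 84869257) had 137, 124 and 117 CPM in the isotype mice, 177, 166 and 153 in the anti-Lag3 mice, 186, 191 and 142 in the anti-PD-L1 mice and 224, 159 and 234 in the CB mice. Its isotype mice lay below all 9 others, and the other 3 groups overlapped. The mean was 126 ± 10.2 CPM under isotype and 206 ± 40.8 under CB, which is 0.70 on the log2 scale (SE 0.14, quasi-likelihood test in edgeR, BH-adjusted p = 0.00256). Farsb had 166, 125 and 123 CPM in the isotype mice, 161, 147 and 134 in the anti-Lag3 mice, 183, 139.7 and 132 in the anti-PD-L1 mice and 170.3, 150.1 and 167 in the CB mice. Its groups overlapped, and its log2 fold change of 0.23 did not pass the threshold (same edgeR test, BH-adjusted p = 0.424). The ratio of Farsa to Farsb CPM was 0.827, 0.990 and 0.951 in the isotype mice, 1.10 to 1.14 in the anti-Lag3 mice, 1.02 to 1.37 in the anti-PD-L1 mice and 1.06 to 1.40 in the CB mice. It was below 1 in the isotype mice only. This ratio was not tested, and as the reads come from the 3′ ends it compares mice rather than the amounts of the subunits. A gene on the same strand that overlaps Farsb, 4833412K13Rik, held 1207 reads against 34834 for Farsb.

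Eprs, Iars and Mars1 encode members of the multi-synthetase complex, in which 8 of the listed cytosolic enzymes are held together by the scaffold proteins Aimp1, Aimp2 and Eef1e1. Eprs, a fused enzyme for glutamate and proline with the most reads of the family (ENSMUSG00000026615, chromosome 1 from 185363044 to 185428360), had 249, 265 and 251 CPM in the isotype mice, 287, 270.5 and 297 in the anti-Lag3 mice, 319.5, 298 and 298 in the anti-PD-L1 mice and 368, 324 and 353 in the CB mice. Its groups were ordered without overlap at both ends: the isotype mice lay below all others and the CB mice above all others. The change was small but precise, with means of 255 ± 8.597 and 348 ± 22.3 CPM and a log2 fold change of 0.45 (SE 0.09, quasi-likelihood test in edgeR, BH-adjusted p = 0.004395). Iars, the isoleucine enzyme (ENSMUSG00000037851, chromosome 13 from 49682100 to 49734267), had 56.6, 46.2 and 51.05 CPM in the isotype mice, 72.9, 64.6 and 66.02 in the anti-Lag3 mice, 58.5, 64.3 and 80.01 in the anti-PD-L1 mice and 77.8, 76.9 and 79.98 in the CB mice. The isotype mice lay below all others, and anti-PD-L1 mouse 3 was as high as the CB mice. Iars rose by 0.61 (SE 0.15, same edgeR test, BH-adjusted p = 0.0156). A pseudogene elsewhere, Gm4849, matches 566 bases at the end of Iars at 96.8% identity and held 0 reads. Short matches of at least 95% identity in the last 600 bases of other synthetases fell in genes with reads: Farsa matches Cse1l over 131 bases (34701 reads), Qars matches Tango2 over 131 bases (5756 reads), and Cars2 matches Txndc15 over 102 bases (13498 reads) and Dennd4a over 123 bases (2264 reads). Mars1, the methionine enzyme that also serves the initiator tRNA (ENSMUSG00000040354, chromosome 10 from 127296221 to 127311786; named Mars in the annotation used), had 76.9, 88.1 and 93.2 CPM in the isotype mice, 92.97, 90.9 and 96.2 in the anti-Lag3 mice, 91.6, 92.3 and 101 in the anti-PD-L1 mice and 139, 119 and 133 in the CB mice. Here the single antibodies stayed near isotype and only the CB mice stood apart, above all 9 others. Mars1 rose by 0.60 (SE 0.13, same edgeR test, BH-adjusted p = 0.00435). It overlaps Ddit3 by 68 bases on the opposite strand, which held 5064 reads against 23649 for Mars1, and the strand setting of the counting is not given in the sources used here.

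Of the 8 complex members, Iars, Eprs and Mars1 were called (3 of 8), and of the 12 cytosolic genes outside the complex, 6 were called. The median log2 fold change was 0.34 in the complex and 0.50 outside it. By catalytic fold, 4 of 9 genes of class I and 4 of 10 genes of class II were called. Eprs, which holds a domain of each class, was called besides. Over all genes 2.33% were called higher. Neither split of the cytosolic genes was tested. The scaffold genes had log2 fold changes of 0.35 for Aimp1 (edgeR, BH-adjusted p = 0.0838), 0.51 for Aimp2 (BH-adjusted p = 0.0651) and 0.17 for Eef1e1 (BH-adjusted p = 0.848), none past the threshold. Aimp1 had 140.1, 151 and 141 CPM in the isotype mice and 179, 175 and 196 in the CB mice. Aimp2 had 76.3, 69.5 and 50.4 CPM in the isotype mice and 95.9, 89.4 and 94.2 in the CB mice. For Aimp1 and Aimp2 all CB mice lay above all isotype mice, an order that 10.4% of all genes showed. For Eef1e1 these groups overlapped.

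Aars, Nars and Tars, the enzymes for alanine, asparagine and threonine, are class II synthetases outside the complex. Aars (ENSMUSG00000031960, chromosome 8 from 111033144 to 111057664) had 64.7, 78.2 and 59.4 CPM in the isotype mice, 91.2, 67.8 and 85.8 in the anti-Lag3 mice, 86.8, 90.1 and 85.7 in the anti-PD-L1 mice and 101, 97.6 and 97.9 in the CB mice. Every CB mouse lay above all 9 others, and the CB mice lay close together, while isotype and anti-Lag3 overlapped. The last 600 bases of Aars match Exosc6, which overlaps it on the same strand and held 0 reads. Aars rose by 0.55 (SE 0.14, quasi-likelihood test in edgeR, BH-adjusted p = 0.0192). Nars (ENSMUSG00000024587, chromosome 18 from 64499647 to 64516652) had 130.2, 138 and 158 CPM in the isotype mice, 175, 131 and 175 in the anti-Lag3 mice, 162, 147 and 159 in the anti-PD-L1 mice and 224, 176 and 236 in the CB mice. CB mouse 2 was just above the highest anti-Lag3 mice, and the other CB mice were far above. Nars rose by 0.58 (SE 0.13, same edgeR test, BH-adjusted p = 0.00804). Tars (ENSMUSG00000022241, chromosome 15 from 11382301 to 11399665) had 119, 122 and 107 CPM in the isotype mice, 129, 117 and 116 in the anti-Lag3 mice, 127, 162 and 127 in the anti-PD-L1 mice and 188, 180.3 and 139.6 in the CB mice. CB mouse 3 fell between the anti-PD-L1 mice, and anti-Lag3 overlapped with isotype. Tars rose by 0.55 (SE 0.13, same edgeR test, BH-adjusted p = 0.0125).

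**Figure D3:**
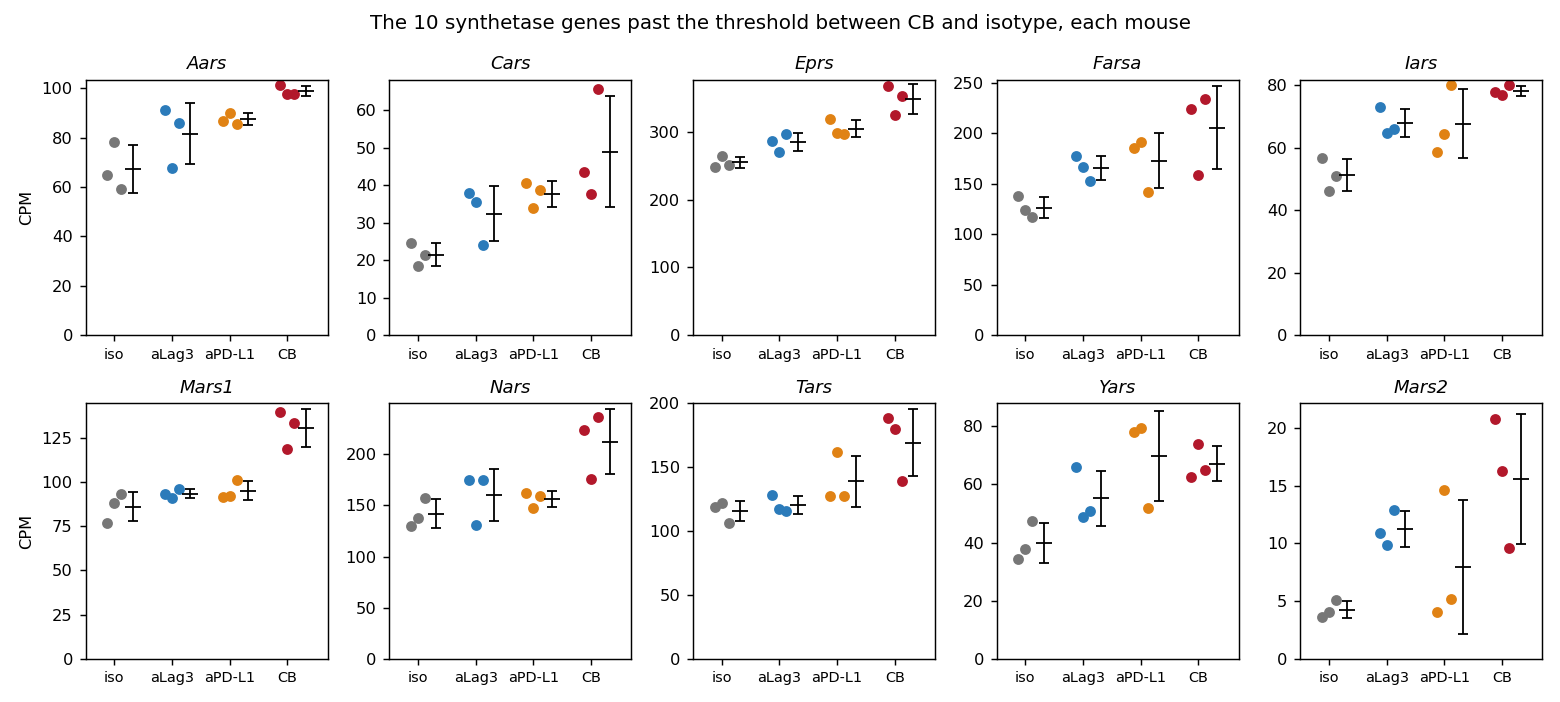
CPM of the 10 synthetase genes called between CB and isotype, one point per mouse in the 4 groups (iso, isotype; aLag3, anti-Lag3; aPD-L1, anti-PD-L1; CB), with mean and SD (n = 3); every vertical axis starts at 0. In each panel the CB points lie above the isotype points, and in Aars, Eprs, Mars1 and Nars they lie above all other points.

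The other cytosolic genes were not called between CB and isotype. Qars, the glutamine enzyme of the complex, was the one with a value below 0. It had 189, 162 and 174 CPM in the isotype mice, 202, 168 and 157 in the anti-Lag3 mice, 160.0, 173 and 158 in the anti-PD-L1 mice and 152, 146 and 149 in the CB mice. The CB mice lay close together below all others, at a log2 fold change of -0.23 (edgeR, BH-adjusted p = 0.348). Wars, the tryptophan enzyme, had 49.5, 37.9 and 37.5 CPM in the isotype mice, 40.8, 37.5 and 43.1 in the anti-Lag3 mice, 33.5, 30.7 and 42.9 in the anti-PD-L1 mice and 44.01, 42.1 and 48.8 in the CB mice, and all its groups overlapped with isotype. The log2 fold changes of the remaining genes were 0.45 for Hars, 0.35 for Rars, 0.33 for Dars and Sars, 0.27 for Gars, 0.25 for Lars, 0.15 for Vars and 0.11 for Kars, with adjusted p-values from 0.07704 for Hars to 0.714 for Kars in the same test. Hars, Gars and Rars were among the genes in which all CB mice lay above all isotype mice. Hars and Hars2 lie head to head and overlap by 198 bases on opposite strands.

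Rars, the arginine enzyme, is singled out after its values were seen, for its pattern across the groups. It had 115, 120.3 and 124 CPM in the isotype mice, 120.0, 112 and 103 in the anti-Lag3 mice, 97.8, 120.4 and 117 in the anti-PD-L1 mice and 157, 144 and 156 in the CB mice. The CB mice lay above all 9 others, and both single antibodies were slightly under isotype, at log2 fold changes of -0.10 each. From isotype to CB the log2 fold change was 0.35 (edgeR, BH-adjusted p = 0.1099), so Rars was not called. The interaction, which is the change with CB beyond the sum of the single antibodies, was 0.55 (SE 0.17, unadjusted p = 0.00351, quasi-likelihood test in edgeR, BH-adjusted p = 0.804).

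Among the mitochondrial enzymes Mars2, which charges the mitochondrial methionine tRNA, was the one gene called (ENSMUSG00000046994, chromosome 1 from 55237177 to 55248470). It had 3.62, 4.05 and 5.08 CPM in the isotype mice, 10.9, 9.90 and 12.9 in the anti-Lag3 mice, 4.06, 14.6 and 5.14 in the anti-PD-L1 mice and 20.8, 16.2 and 9.64 in the CB mice. All isotype mice lay below all CB mice and all anti-Lag3 mice, whereas the anti-PD-L1 mice were split, with mouse 2 high and the others at isotype level. From 4.25 ± 0.7504 to 15.6 ± 5.61 CPM, the log2 fold change was 1.87, the largest of the 36 genes and with an SE of 0.45 (quasi-likelihood test in edgeR, BH-adjusted p = 0.0131). Mars2 held 2281 reads in all, between Aars2 with 1956 and Ears2 with 2676.

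Tars2 and Yars2, the mitochondrial threonine and tyrosine enzymes, came next. Tars2 had 27.8, 32.2 and 20.9 CPM in the isotype mice, 39.8, 37.7 and 35.4 in the anti-Lag3 mice, 38.1, 29.05 and 36.96 in the anti-PD-L1 mice and 39.4, 49.6 and 42.1 in the CB mice. Its CB mice lay above its isotype mice, and its log2 fold change of 0.70 (SE 0.20) missed the threshold narrowly (edgeR, BH-adjusted p = 0.0501). Yars2 had 21.3, 31.2 and 31.6 CPM in the isotype mice, 31.7, 30.8 and 40.9 in the anti-Lag3 mice, 36.8, 28.2 and 46.5 in the anti-PD-L1 mice and 46.4, 44.7 and 42.9 in the CB mice. Here too CB lay above isotype without overlap, with a log2 fold change of 0.67 (same edgeR test, BH-adjusted p = 0.0821), and anti-PD-L1 mouse 3 was about as high as the CB mice.

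At the other end of the mitochondrial list were the serine enzyme Sars2 and the proline enzyme Pars2. Sars2 had 12.5, 11.9 and 13.1 CPM in the isotype mice, 17.5, 19.4 and 18.5 in the anti-Lag3 mice, 17.1, 19.01 and 9.74 in the anti-PD-L1 mice and 7.12, 8.51 and 13.9 in the CB mice. The anti-Lag3 mice were the highest group, and CB mice 1 and 2 the lowest samples. From isotype to CB its log2 fold change was -0.34 (edgeR, BH-adjusted p = 0.7096), and its interaction was -1.19 (SE 0.46, BH-adjusted p = 0.804). Pars2 had 5.28, 7.09 and 7.41 CPM in the isotype mice, 3.14, 5.25 and 7.51 in the anti-Lag3 mice, 8.36, 8.92 and 5.64 in the anti-PD-L1 mice and 9.06, 3.08 and 3.69 in the CB mice. CB mouse 1 had the highest and CB mouse 2 the lowest value of all 12 mice, so the group spanned the whole range.

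The mitochondrial partners of the other called genes gave no call. Iars2, the best covered of them, had 83.9, 71.1 and 96.3 CPM in the isotype mice, 98.3, 76.4 and 112 in the anti-Lag3 mice, 84.2, 104 and 77.6 in the anti-PD-L1 mice and 87.2, 88.9 and 78.8 in the CB mice. All groups overlapped, at a log2 fold change of 0.02 with a standard error of 0.15, while cytosolic Iars rose by 0.61. Cars2, partner of Cars, had 40.3, 22.8 and 39.4 CPM in the isotype mice, 31.99, 42.9 and 38.3 in the anti-Lag3 mice, 33.9, 39.9 and 30.95 in the anti-PD-L1 mice and 52.2, 38.5 and 51.3 in the CB mice. Isotype mouse 2 was the lowest sample, CB overlapped with isotype, and the log2 fold change was 0.47 (edgeR, BH-adjusted p = 0.305). Cars2 overlaps Naxd by 984 bases on the opposite strand.

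Less abundant partners spread widely within groups. Aars2 had 11.8, 3.23 and 9.16 CPM in the isotype mice, 7.79, 4.55 and 11.4 in the anti-Lag3 mice, 14.2, 3.702 and 6.83 in the anti-PD-L1 mice and 7.65, 10.1 and 10.2 in the CB mice. Ears2, for glutamate, had 11.4, 5.64 and 10.3 CPM in the isotype mice, 7.84, 15.9 and 8.67 in the anti-Lag3 mice, 15.9, 14.5 and 10.9 in the anti-PD-L1 mice and 11.1, 12.4 and 13.1 in the CB mice. In both, isotype mouse 2 was the lowest sample and every treated group overlapped with isotype. Fars2, a single-chain phenylalanine enzyme, had 17.2, 12.7 and 8.896 CPM in the isotype mice, 19.9, 19.1 and 12.7 in the anti-Lag3 mice, 12.4, 11.8 and 9.603 in the anti-PD-L1 mice and 18.02, 14.9 and 12.3 in the CB mice. Nars2 had 8.76, 3.61 and 5.61 CPM in the isotype mice, 2.88, 4.26 and 5.67 in the anti-Lag3 mice, 9.001, 4.04 and 4.55 in the anti-PD-L1 mice and 5.76, 5.24 and 6.69 in the CB mice. Their log2 fold changes between CB and isotype were 0.20, 0.42, 0.22 and -0.02, with standard errors of 0.32 to 0.56. For Nars2 the error was about as large as the change in Nars. The remaining mitochondrial genes had log2 fold changes of 0.48 for Wars2, 0.33 for Vars2, 0.12 for Hars2, 0.10 for Rars2 and -0.02 for Lars2, none called.

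Set side by side for the same amino acid, the cytosolic gene had the larger log2 fold change between CB and isotype in 13 of 17 pairs, with a median difference of 0.27. The exceptions were methionine (Mars2 above Mars1), threonine, valine and tryptophan. Against the same isotype mice, the cytosolic gene was the larger in 9 of 17 pairs with anti-PD-L1 (median difference 0.05) and in 10 of 17 with anti-Lag3 (median difference 0.17). Eprs is paired with both Ears2 and Pars2, and Fars2 with both Farsa and Farsb, so these pairs are not independent.

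Neither antibody alone gave a call among the synthetases. Anti-PD-L1 against isotype called 5 genes of all those tested (0.033%), and anti-Lag3 against isotype called 0. The unadjusted p was under 0.05 for 6 cytosolic and 0 mitochondrial genes with anti-PD-L1, against 7.84% of all genes, and for 4 cytosolic and 2 mitochondrial genes with anti-Lag3, against 5.21%. The values nonetheless lay mostly above 0. With anti-PD-L1 16 of 20 cytosolic genes were above isotype (median log2 fold change 0.15), and with anti-Lag3 16 of 20 (median 0.10). For the mitochondrial genes these were 14 of 16 (median 0.22) and 9 of 16 (median 0.17). The mitochondrial median with anti-PD-L1 was 0.13 without anti-PD-L1 mouse 2, and that with anti-Lag3 was 0.041 without isotype mouse 2 and 0.096 without anti-Lag3 mouse 3. All mice of the treated group lay above all isotype mice in 7 cytosolic genes with anti-PD-L1, against 5.34% of all genes, and in 6 with anti-Lag3, against 5.25%. Of the 16 mitochondrial genes, 0 had this order under anti-PD-L1, while 3 had it under anti-Lag3 (Mars2, Sars2 and Tars2). The opposite order, which 6.46% and 4.81% of all genes showed, was found in 0 synthetases. The comparisons of CB, anti-PD-L1 and anti-Lag3 with isotype share the same 3 isotype mice, so a low isotype value raises all 3.

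The 10 genes called in CB differed in what the single antibodies did. Cars, Yars, Farsa and Iars had values above isotype with either antibody too, though none was called: for Cars the log2 fold changes were 0.81 with anti-PD-L1, 0.59 with anti-Lag3 and 1.19 with CB. For Farsa they were 0.45, 0.39 and 0.70, and for Iars 0.40, 0.40 and 0.61, in the same order. Mars1 and Nars lay close to isotype with either antibody, at 0.14 and 0.12 for Mars1 and 0.14 and 0.17 for Nars, against 0.60 and 0.58 with CB. None of these differences in pattern passed a test: no synthetase, and none of the 15138 genes, was called for the interaction. The unadjusted p of the interaction was under 0.05 for 2 of the 36 genes, Rars and Sars2, a share close to the 5.93% of all genes. The interaction was 0.34 (SE 0.18) for Mars1 and -0.53 (SE 0.26) for Yars.

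**Figure D4:**
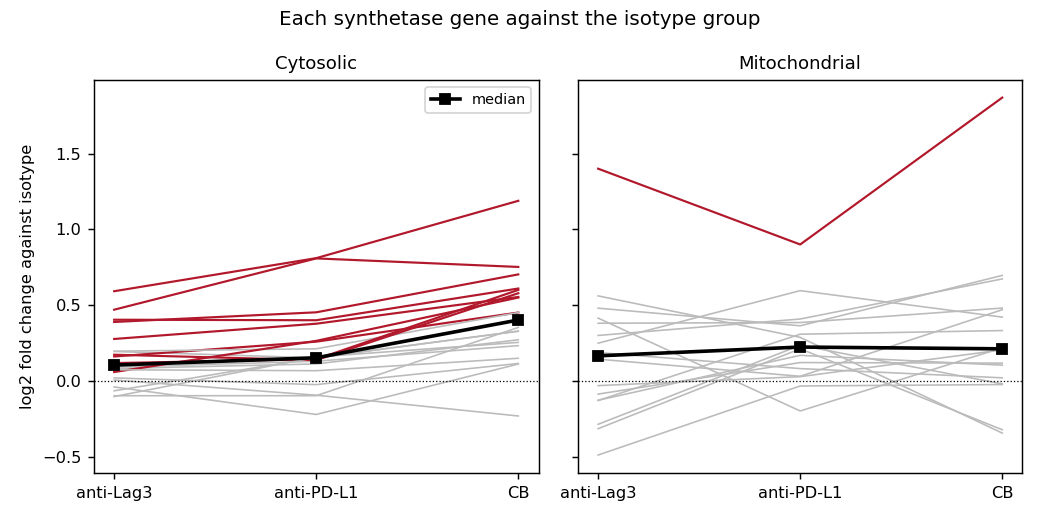
Log2 fold change against the isotype group (vertical axis) for anti-Lag3, anti-PD-L1 and CB, one line per synthetase gene, with red for genes called between CB and isotype, grey for the others and black squares for the list median. The cytosolic median goes from 0.10 and 0.15 with the single antibodies to 0.40 with CB; the mitochondrial median is 0.17 with anti-Lag3, 0.22 with anti-PD-L1 and 0.21 with CB, each of which moved by over 1.5 times in at least 1 fit that left out 1 mouse.

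Compared directly with each single antibody, CB was higher for most cytosolic genes, but again without a call. Against anti-PD-L1, 18 of 20 cytosolic genes had a log2 fold change above 0 (median 0.18), and against anti-Lag3 19 of 20 (median 0.28). The mitochondrial genes were above 0 in 9 of 16 (median 0.02) and 12 of 16 (median 0.22). The first of these medians was 0.22 without anti-PD-L1 mouse 1, 0.051 without CB mouse 1 and 0.099 without CB mouse 2, and it was below 0 without anti-PD-L1 mouse 2 (-0.028), anti-PD-L1 mouse 3 (-0.043) or CB mouse 3 (-0.038). Against anti-PD-L1 0.37% of all genes were called (0.205% higher and 0.165% lower in CB), and against anti-Lag3 0.694% (0.39% higher and 0.304% lower). All CB mice lay above all anti-PD-L1 mice in 6 cytosolic genes (6.94% of all genes) and above all anti-Lag3 mice in 8 (7.68% of all genes). Against each antibody 1 mitochondrial gene had this order, Tars2 for anti-PD-L1 and Yars2 for anti-Lag3. In Qars the CB mice lay below all mice of either group, an order that 5.75% and 7.09% of all genes showed. Sars2 had this lower order against anti-Lag3 alone. The unadjusted p was under 0.05 for 4 cytosolic genes and 1 mitochondrial gene against anti-PD-L1 (9.08% of all genes) and for 10 and 1 against anti-Lag3 (9.46% of all genes). The nearest to a call was Mars1 against anti-Lag3, with a log2 fold change of 0.48 (edgeR, BH-adjusted p = 0.07495), followed by Rars with 0.45 (BH-adjusted p = 0.0867) and Tars with 0.49 (BH-adjusted p = 0.08698). For Yars the log2 fold change of CB over anti-PD-L1 was -0.06 (SE 0.18).

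CB had the highest group mean in 18 of the 20 cytosolic genes and isotype the lowest in 14, and both held together in 13. That order was found in 12.9% of all genes and in 5 of the 16 mitochondrial genes. The CB mice lay above all 9 other mice in Aars, Eprs, Mars1, Nars and Rars, 5 of 20 cytosolic genes, against 2.35% of all genes and 0 mitochondrial genes. The isotype mice lay below all 9 others in Eprs, Farsa, Iars and Yars, 4 of 20, against 1.1% of all genes and 0 mitochondrial genes.

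ATF4 is a transcription factor made when amino acids run short or other stress signals arrive, and it is known to drive many synthetase genes along with enzymes that make serine and asparagine. Of 25 listed genes, made up of Atf4 and its known targets other than the synthetases, 22 were tested. Of these, 3 were called higher in CB than in isotype: Atf4 itself, Psat1 and Shmt2. Over all genes tested 2.33% were called higher. Atf4 (ENSMUSG00000042406) had 161, 178 and 218 CPM in the isotype mice, 186, 167 and 203 in the anti-Lag3 mice, 229.8, 199.9 and 217 in the anti-PD-L1 mice and 256, 254 and 308 in the CB mice. All CB mice lay above all other mice, and anti-Lag3 overlapped fully with isotype. Atf4 rose by 0.56 between isotype and CB (SE 0.12, quasi-likelihood test in edgeR, BH-adjusted p = 0.00569) and by 0.56 between anti-Lag3 and CB (same edgeR test, BH-adjusted p = 0.0221).

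Psat1, of serine synthesis, had 207, 199 and 192 CPM in the isotype mice, 268, 229 and 224 in the anti-Lag3 mice, 224, 245 and 226 in the anti-PD-L1 mice and 285, 254 and 257 in the CB mice. It rose by 0.41 (edgeR, BH-adjusted p = 0.0175), with all isotype mice below all others. Shmt2, which makes glycine from serine in the mitochondrion, had 152, 137 and 126 CPM in the isotype mice, 145, 152 and 128 in the anti-Lag3 mice, 204, 189.5 and 148 in the anti-PD-L1 mice and 232, 161 and 188 in the CB mice. It rose by 0.49 (same edgeR test, BH-adjusted p = 0.0395), with CB and anti-PD-L1 overlapping. Asns, which makes asparagine, and Ddit3, a transcription factor of the stress response, are classical ATF4 targets. Asns had 9.11, 13.4 and 5.82 CPM in the isotype mice and 12.4, 6.35 and 2.49 in the CB mice, at a log2 fold change of -0.42 (SE 0.59). Ddit3 had 18.3, 33.0 and 23.6 CPM in the isotype mice and 25.1, 17.3 and 21.9 in the CB mice, at -0.22 (SE 0.29). Neither was called. The median log2 fold change of the 22 tested genes was 0.15, with 17 above 0. Over all genes tested the median was 0, with 48.8% above 0.

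**Figure D5:**
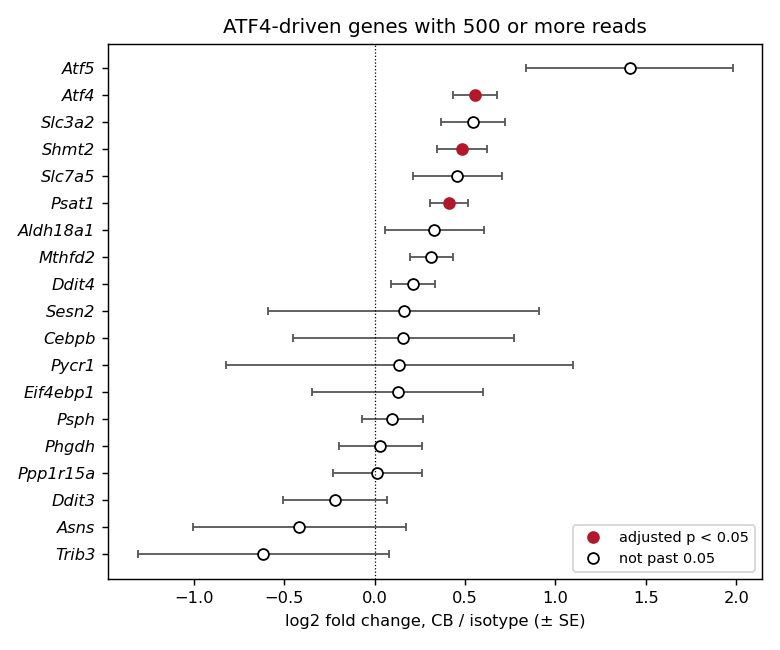
Log2 fold change between CB and isotype (horizontal axis) with bars of 1 standard error for the listed ATF4-driven genes that held at least 500 reads; filled points passed an adjusted p of 0.05 in edgeR's test over all genes. Atf4, Psat1 and Shmt2 are filled, and Asns, Ddit3 and Trib3 lie left of 0 with wide bars.

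A pair of lists of other genes of translation gave no call between CB and isotype, where 4.29% of all genes were called. Of 13 genes that assist charging, which include the scaffolds above, proofreading enzymes and the mitochondrial amidotransferase, 0 were called, 10 had a value above 0 and the median log2 fold change was 0.19. The unadjusted p was under 0.05 for 2 of them, Aimp1 and Aimp2, near the share of 14.9% over all genes. Of 8 elongation factor genes 0 were called, 4 had a value above 0 and the median was -0.02. The unadjusted p was under 0.05 for 1, again near that share: Tufm, which encodes the mitochondrial elongation factor Tu, at a log2 fold change of 1.06 (edgeR, BH-adjusted p = 0.0565).

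Promoter sequences from RefSeq (build GRCm38.p6), from 250 bases before to 50 after a transcript's start, were given for 27 of the 36 genes, with 28 promoters. None was given for Cars and Nars, which were called, nor for Hars, Lars, Rars, Vars, Wars, Hars2 and Pars2. The letters TGATGNAA, the core of the element that C/EBP and ATF proteins bind, were looked for on both strands. They stood in 5 of 13 cytosolic promoters (38.5%), 0 of 15 mitochondrial promoters and 3.97% of all 32851 promoters in the table. The letters CACGTG, the E-box bound by MYC, stood in 4 of 13 cytosolic promoters (30.8%), 1 of 15 mitochondrial promoters (6.67%) and 7.15% of all. The cytosolic promoters with TGATGNAA were those of Aars, Gars, Iars, Tars and Yars. Of these, Aars, Iars, Tars and Yars were called between CB and isotype and Gars was not. Eprs, Farsa, Mars1 and Mars2 were called and held neither run of letters in this window, which says nothing on any factor. The E-box letters stood in Aars, Farsb, Iars and Tars, and in mitochondrial Ears2. Matches in the genes that the results turn on are shown with 11 flanking bases, the matching letters in capitals and each gene's own strand read 5′ to 3′.
Yars, chr4:129189895-129189924, + strand, first capital at base 4 after the start: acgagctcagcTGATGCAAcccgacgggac
Aars, chr8:111033840-111033869, + strand, base 10 after the start: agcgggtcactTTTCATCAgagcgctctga
Iars, chr13:49682126-49682155, + strand, base 8 after the start: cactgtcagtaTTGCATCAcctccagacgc
Tars, chr15:11399655-11399684, - strand, 15 bases before the start: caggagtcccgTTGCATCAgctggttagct
Gars, chr6:55037960-55037989, + strand, 30 bases before the start: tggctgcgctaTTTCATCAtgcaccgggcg
In all but Yars the capitals are TGATGNAA read from the opposite strand. In Aars, Iars and Tars an E-box lies in the same promoter.
Aars, E-box, chr8:111033685-111033712, + strand, 146 bases before the start: gtcaaccctgtCACGTGacactccatgt
Iars, E-box, chr13:49682050-49682077, + strand, 69 bases before the start: accaatcgccaCACGTGttgtttgtagg
Tars, E-box, chr15:11399623-11399650, - strand, base 20 after the start: ccgcctgtggcCACGTGgcgcacgcgca
A match describes the letters of the promoter and not the binding of a factor in these cells.

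Calls of single genes rested on few mice. Cars, Eprs, Farsa and Mars1 were called between CB and isotype whichever of the 12 libraries was left out. Aars was lost without isotype mouse 1 or 3 or CB mouse 1 or 3, Iars without isotype mouse 2 or 3 or CB mouse 1 or 3, and Nars without isotype mouse 1 or CB mouse 3. Tars was lost without isotype mouse 3 or CB mouse 1 or 2, Yars without isotype mouse 1 or 2 or CB mouse 2, and Mars2 without isotype mouse 1 or 2 or CB mouse 1. Their log2 fold changes stayed above 0 in all these fits, with adjusted p-values of at most 0.115.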

How the data were processed

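Gene counts of 12 libraries, 1 from each mouse, were analysed, with groups taken from the labels. The authors prepared QuantSeq 3′ libraries from 5 ng of RNA with 18 PCR cycles. The paper's methods mention no molecular identifiers. Reads were trimmed with Cutadapt 1.18 and mapped to GRCm38 with STAR 2.6.1a, and uniquely mapped reads were counted with featureCounts 1.6.4. The deposited counts were raw; the authors also deposited log2 values transformed by rlog, not used here. The annotation release and strand setting are not given in the sources used here.

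Counts were fitted with edgeR 4.0.16 in R 4.3.3: genes with at least 30 reads over all samples, TMM scaling, 4 group means, quasi-likelihood tests, Benjamini-Hochberg adjustment over all genes and a threshold of 0.05. Standard errors are the log2 fold change over the root of F. The script was tested on simulated counts. Coordinates are from GENCODE for GRCm38.

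The members, lists and tests were chosen with earlier results of these data known. All 36 members are accounted for; values in every sample are given for members called in any comparison, for the partner of a called member in the other compartment, and for the 2 largest and 2 smallest changes in each compartment. Alternatives were DESeq2 1.42.0 (Wald tests against log2 fold changes of 0 and 0.2), DESeq2 size factors, other filters, only the groups compared, a replicate block, each sample left out, Gars and Kars left out, and, added later, the mitochondrial list without Lars2 and all libraries without the 4 numbered 1. With 3 mice a group, p-values rest on the spread between mice. Some markers and promoter matches are not reported here.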

Additional observations from a re-analysis of the deposited data

How the results depend on the processing

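Standard errors were wider for the mitochondrial than for the cytosolic genes; the part of depth in this was not tested. Members called between CB and isotype were 10 with DESeq2's size factors, as in the analysis above. The mitochondrial count of 1 became 3 without a filter on low counts (adding Tars2 and Yars2), 2 with filterByExpr and 2 with DESeq2's test against 0 (adding Tars2), 3 with the replicate block (adding Tars2 and Yars2) and 0 without the 4 samples numbered 1. The cytosolic count of 9 became 1 (Cars) with DESeq2's test against 0.2 and 3 without the samples numbered 1. Without those samples the mitochondrial median of CB was 0.35 against isotype, where the cytosolic one was 0.37, and 0.29 between CB and anti-PD-L1. The counts of 0 with other comparisons became 1 for anti-PD-L1 against isotype (Yars; no filter, DESeq2 against 0, replicate block), 1 for CB against anti-PD-L1 (Nars; no filter) and 2 (Mars1 and Rars; DESeq2 against 0), and for CB against anti-Lag3 1 (Tars; no filter and replicate block) and 4 (Eprs, Mars1, Rars and Tars; DESeq2 against 0). The cause of these shifts was not tested.

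Leaving out 1 library at a time, 6 to 9 cytosolic and 0 to 2 mitochondrial genes were called between CB and isotype, with medians of 0.37 to 0.47 and 0.13 to 0.38. The mitochondrial median was 0.13 to 0.29 with anti-PD-L1 and 0.041 to 0.23 with anti-Lag3. Anti-PD-L1 called 0 to 1 cytosolic genes. The cytosolic median of CB against anti-Lag3 was 0.21 to 0.37, and the mitochondrial median of CB against anti-PD-L1 was -0.043 to 0.22. The sign of some single genes reversed. Between CB and isotype Nars2 was 0.042 with the replicate block, 0.37 without the samples numbered 1 and -0.28 to 0.35 leaving out 1 library, Aars2 -0.17 to 0.58 and Iars2 -0.084 to 0.13. Between CB and anti-PD-L1 Yars was 0.079 without the samples numbered 1 and -0.23 to 0.047 leaving out 1 library. Tars with anti-Lag3 was -0.0016 to 0.096, and the interaction was -0.0098 to 0.081 for Eprs, -0.26 to 0.018 for Farsa and -0.74 to 0.35 for Mars2.

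The replicate numbers were not treated as pairs, since the correlation of deviations between same-numbered samples was at most 0.05. Yet 9 of 12 samples correlated best with a sample of their own number. These correlations ran over all genes and cannot settle whether the numbers mark the sort batches of 4 samples. The labels do not say so either. The paper states that PC2 of its principal component analysis largely reflected batch effects of the sort. With the number as a block 13 members were called between CB and isotype, adding Hars, Tars2 and Yars2. Between CB and isotype the cytosolic median was 0.45 without Gars and Kars and the mitochondrial median 0.22 without Lars2, and every member had a mean of at least 30 reads a sample.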
